A study of Rattus norvegicus with 287 samples.

Results

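The effect of ultrasound on skeletal muscle was read from 10 libraries of male obese ZDF rats, out of 287 in the series. These are the 5 libraries titled as controls at 7 weeks (numbers 1 to 5) and the 5 titled as pFUS, for peripheral focused ultrasound, at 7 weeks (numbers 6 to 10), and they were chosen by title alone. The obese ZDF rat is a leptin receptor mutant strain used as a model of obesity and type 2 diabetes, so both groups carry that background, and all animals were anaesthetised with isoflurane. Ultrasound at 1.1 MHz was aimed at the porta hepatis, the entry of vessels and nerves into the liver, for 3 minutes with 200 mV per pulse, 150 burst cycles and a burst period of 500 µs. Controls received a sham session without energy. The labels used here do not name the muscle, the age of the rats or the hour of tissue collection. Groups set beside these were lean Zucker muscle at 7 weeks (4 control and 4 pFUS libraries), obese muscle at 3 days (4 control libraries, 4 titled AM only x1 and 4 titled AM only x10) and obese liver at 7 weeks (5 and 5). Nothing in the labels says whether the 5 libraries of a group are 5 animals, so p-values measure the spread between these samples.

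Skeletal muscle keeps its own circadian clock. In that clock, the transcription factors Arntl (Bmal1) and Clock or Npas2 bind E-boxes and switch on their own repressors, among them the Per, Cry and Ciart genes, while ROR and REV-ERB (Nr1d1, Nr1d2) receptors act on Arntl through ROR elements. Muscle also burns its protein through ubiquitin ligases such as Fbxo32 (atrogin-1), and takes up glucose under insulin through Irs2 and related adaptors.

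The libraries held 12039643 to 16563618 counts each, and the creatine kinase Ckm, the marker that defines muscle, lay between 22370 and 71180 CPM, the share of a library's counts scaled to a common total. The fast myosin Myh1 reached 48540 to 71870 CPM, while the slow myosin Myh7 ranged from 7.34 to 837 CPM. Total counts differed between the groups by less than their spread (exact two-sided permutation p = 0.548 over 252 splits), and so did the share of counts from RNAs without poly(A) (exact two-sided permutation p = 0.825). Controls were less alike than pFUS libraries: on the first principal component, which held 45.2% of the variance, controls ran from -75.3 to 43.4 and pFUS libraries from -20.5 to 38.5. Control 4 had the lowest median correlation with the other libraries, 0.911, against 0.942 to 0.962 for the rest. Ucp1 and Ins2, which mark brown fat and the endocrine pancreas, were at 0 in all 10 libraries, and the hepatocyte gene Alb did not exceed 4.1 CPM. Summed adipocyte markers (16 of 17 found) ranged from 297 to 1010 CPM in controls and from 443 to 1238 CPM in pFUS libraries, and macrophage markers (13 of 14) had medians of 320 and 277 CPM. No member of the 15 marker lists passed the test by edgeR. In bulk tissue, fewer cells of a type and less RNA per cell cannot be told apart.

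After 7 weeks of ultrasound, 15 of 12577 genes tested (0.119%) differed in obese muscle, 5 higher (0.0398%) and 10 lower (0.0795%), by edgeR's quasi-likelihood test with Benjamini-Hochberg adjustment at 0.05. The higher genes were the clock repressors Ciart and Per2, the phosphatase Dusp1, the kinase Sgk1 and the mitochondrial carrier Slc25a30. The lower genes included the clock activator Arntl, the catecholamine enzyme Pnmt and the eIF2α phosphatase subunit Ppp1r15a. In 12 of the 15 genes the pFUS and control libraries did not overlap, against 86 of all 12577 genes (0.684%). The 15 were selected by a test on these same libraries, which favours separated groups, so this count describes them and adds no support. The median log2 fold change of all genes was -0.01. The count was 52 by DESeq2 and 5 when only the 10 libraries were fitted, and it was 7 without control 2, 35 without control 5, and 6, 5, 5 and 3 without pFUS libraries 6, 7, 8 and 10. Pnmt and Ciart were called under each of the 10 single omissions and in both fits, with a limit for Pnmt given below. Of the others, Per2 was called in 9 of the 10 omissions, Dusp1 in 8, Ppp1r10 in 7, Lrrc30 and LOC103692169 in 6, Tmem140, Pnrc1 and Ppp1r15a in 4, Arntl and Ddit4l in 3, and Sgk1 and Slc25a30 in 2. The fit of only the 10 libraries did not call Per2, Sgk1 (edgeR adjusted p = 0.109 for each), Ppp1r10 (0.149), Dusp1, Slc25a30, Tmem140, Ddit4l, Pnrc1 or Ppp1r15a (0.225 to 0.310). LOC103692169 did not pass the low-count filter of that fit and was not tested there.

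**Figure D1:**
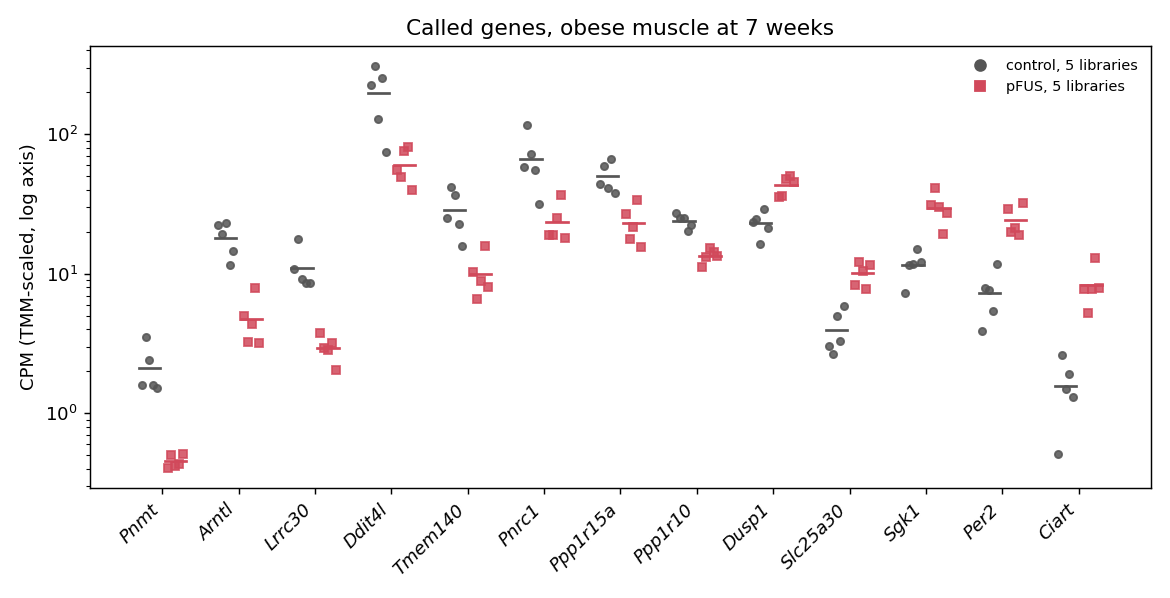
Level of 13 of the called genes, in TMM-scaled CPM on a log axis, with 1 point per library and a bar at the group mean. Ciart lies between 0.509 and 2.61 CPM in controls and between 5.21 and 13.0 CPM in pFUS libraries.

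The promoters of 3 called clock genes are shown because the E-box and the ROR element are the sites through which the clock loop works. The sequences are from RefSeq (GRCr8), run 5′ to 3′, and cover 250 bases before and 50 after the annotated start; 10 of the 15 called genes had one in that table. Capitals mark E-boxes (CACGTG) and the related CACGTT in Ciart and Per2, and the ROR element TAGGTCA in Arntl, each searched on both strands with no overlap between matches.
Ciart (Ciart, chr2:186112197-186112496, minus strand): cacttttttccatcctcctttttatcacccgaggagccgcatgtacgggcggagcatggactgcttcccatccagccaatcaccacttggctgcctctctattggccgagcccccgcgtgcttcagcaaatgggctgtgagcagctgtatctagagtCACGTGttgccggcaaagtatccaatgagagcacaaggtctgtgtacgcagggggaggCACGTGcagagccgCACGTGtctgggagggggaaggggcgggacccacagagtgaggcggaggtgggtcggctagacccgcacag
Per2 (Per2, chr9:99496944-99497243, minus strand): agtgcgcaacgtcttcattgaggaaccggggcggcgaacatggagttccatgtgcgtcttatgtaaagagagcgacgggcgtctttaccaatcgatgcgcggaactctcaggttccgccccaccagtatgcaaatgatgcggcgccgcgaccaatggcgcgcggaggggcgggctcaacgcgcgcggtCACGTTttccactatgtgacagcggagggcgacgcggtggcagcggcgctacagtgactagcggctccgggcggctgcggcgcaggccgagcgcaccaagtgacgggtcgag
Arntl (Bmal1, chr1:176766078-176766377, plus strand): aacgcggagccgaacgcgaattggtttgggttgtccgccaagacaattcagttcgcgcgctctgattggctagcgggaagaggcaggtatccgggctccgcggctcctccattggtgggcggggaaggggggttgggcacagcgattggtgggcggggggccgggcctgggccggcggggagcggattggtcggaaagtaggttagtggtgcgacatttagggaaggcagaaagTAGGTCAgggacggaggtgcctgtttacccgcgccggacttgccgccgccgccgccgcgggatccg
The Ciart window held 3 E-boxes, with first bases at -93, -35 and -21 from the start. The Per2 window held 1 CACGTT, at -62, and 1 D-box (TTATGTAA), at -192, which is not in capitals. The Arntl window held 1 ROR element, at -16. Of all 33469 windows of 300 bases, 6.42% held CACGTG, 4.83% CACGTT, 0.893% the D-box and 2.63% the ROR element. Beyond the clock, the Dusp1 window held 1 CACGTG, at -107, and the Ppp1r10 window 1 CACGTT, at -55, while the window of the clock output gene Dbp held neither. A match describes these letters and says nothing of binding in these rats.

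Of the clock repressors, Ciart, which dampens Clock-Arntl activity, read 0.509, 2.61, 1.51, 1.91 and 1.32 CPM in controls 1 to 5 and 7.79, 5.21, 7.80, 13.0 and 7.98 CPM in pFUS libraries 6 to 10. Every pFUS library was above every control. The fitted rise was 5.26-fold (log2 2.40 ± 0.34 SE, adjusted p = 0.00443 by edgeR). Per2, a core repressor of the same loop, read 3.90, 7.89, 7.67, 5.43 and 11.8 CPM in controls and 29.1, 19.9, 21.3, 19.0 and 32.4 CPM with ultrasound. The groups did not overlap, and the rise was 3.30-fold (log2 1.72 ± 0.27, edgeR adjusted p = 0.0124).

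Of the activators, Arntl read 22.3, 19.2, 23.0, 11.7 and 14.6 CPM in controls and 5.01, 3.27, 4.35, 7.89 and 3.19 CPM in pFUS libraries. It was lower in 5 of 5 pFUS libraries than in any control, 3.83-fold in the fit (log2 -1.94 ± 0.34, edgeR adjusted p = 0.0230). Its partner Npas2 pointed the same way, with 2.74 to 5.26 CPM in controls and 0.610 to 1.67 CPM in pFUS libraries (log2 -1.76 ± 0.42), but missed the threshold (edgeR adjusted p = 0.160). Clock itself had a log2 estimate of -0.41 ± 0.29.

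The output factor Dbp, a textbook target of Clock-Arntl, ranged from 10.2 to 73.1 CPM in controls and from 83.9 to 117 CPM in pFUS libraries, with no overlap (log2 1.78 ± 0.36, edgeR adjusted p = 0.0720). It was called by DESeq2 (adjusted p = 0.000554), by limma voom (log2 2.29, adjusted p = 0.000452) and by edgeR without control 4 (log2 2.39, adjusted p = 0.000464). The repressor Per3 had no overlap either (log2 1.20 ± 0.26, edgeR adjusted p = 0.106). Nfil3, which opposes Dbp at D-boxes, was at 31.9 to 52.5 CPM in controls and 13.9 to 29.0 CPM with ultrasound (log2 -1.02 ± 0.23, edgeR adjusted p = 0.130). Npas2, Clock, Nfil3 and the 4 genes that follow were named after their values were seen. Estimates were -0.57 for Cry1, 0.94 for Per1, -0.72 for Nr1d1 and 0.46 for Nr1d2, and none passed by edgeR. Among all 19 clock genes, 2 rose, 1 fell and 16 did not pass by edgeR, beside 0.119% of all genes called. In 8 of the 19 the groups did not overlap, beside 0.684% of all genes. DESeq2 called 7 of the 19, adding Dbp, Per3, Npas2 and Nfil3, beside 52 of all 12577 genes. The limma voom fit called 5, adding Dbp and Per3, beside 20 of all 12577 genes.

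**Figure D2:**
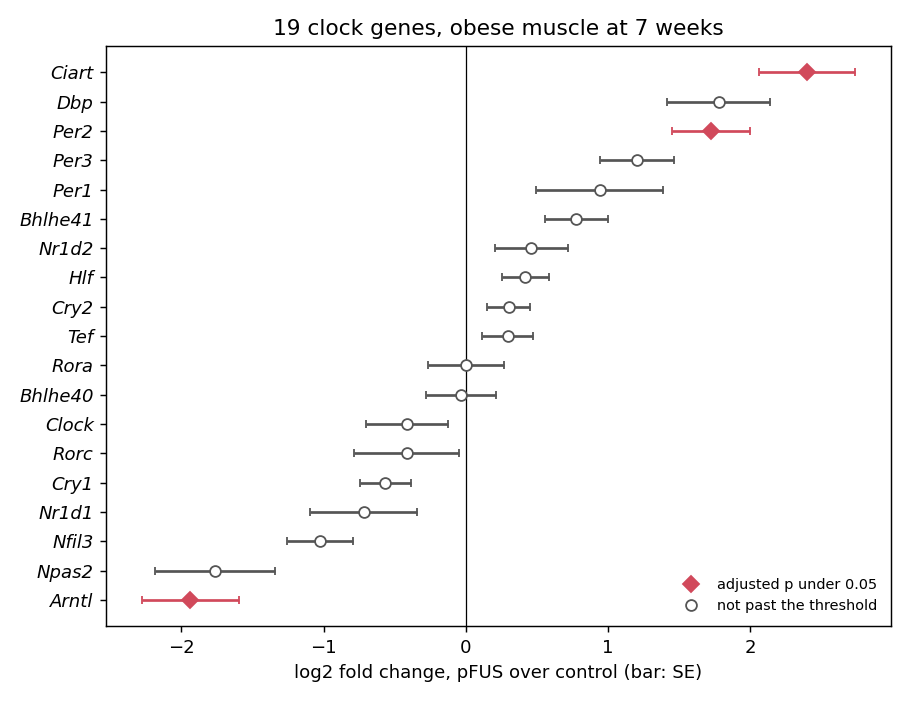
Log2 fold change (pFUS over control, with SE) of the 19 clock genes in obese muscle at 7 weeks, sorted by estimate. Filled diamonds are the 3 past the threshold, from Arntl at -1.94 to Ciart at 2.40.

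In protein turnover, Fbxo32, the ubiquitin ligase that marks atrophying muscle, read 139, 299, 230, 97.7 and 112 CPM in controls and 69.6, 22.1, 60.1, 90.3 and 49.5 CPM in pFUS libraries. Its log2 estimate of -1.59 ± 0.32 did not pass by edgeR (adjusted p = 0.0728) and passed by DESeq2 (adjusted p = 0.000773). Of 22 atrophy and autophagy genes, 21 did not pass by edgeR, beside 0.119% of all genes called. Of the 22, 17 estimates were below 0, and the list's median log2 fold change was -0.39. Gadd45a (-0.67), Ulk1 (-0.58) and Sqstm1 (-0.71) were among the lower estimates.

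Among stress and hormone genes, Dusp1, which switches off MAP kinases and is induced by glucocorticoids, rose: controls lay between 16.3 and 29.4 CPM and pFUS libraries between 35.4 and 50.6 CPM (log2 0.90 ± 0.15, edgeR adjusted p = 0.0160). Sgk1, a kinase regulated by glucocorticoid and mineralocorticoid receptors, read 7.29, 11.7, 11.8, 15.1 and 12.2 CPM in controls and 31.0, 41.5, 30.2, 19.2 and 27.1 CPM in pFUS libraries. The groups did not overlap, though the adjusted p was 0.0491 by edgeR (log2 1.36 ± 0.26). Of 23 glucocorticoid targets tested, these 2 rose, none fell and 21 did not pass by edgeR, beside 0.119% of all genes called. DESeq2 also called Fbxo32 and Cdkn1a, both lower, beside 52 of all 12577 genes. The limma voom fit called Cdkn1a but not Sgk1, beside 20 of all 12577 genes. Others on the list had lower estimates: Cdkn1a, a cell cycle inhibitor, -1.32 ± 0.30, and Angptl4, an inhibitor of lipoprotein lipase, -1.22 ± 0.32. The list's median was 0.13.

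Ppp1r15a (GADD34), which restores translation after stress, read 38.0 to 66.9 CPM in controls and 15.6 to 33.8 CPM in pFUS libraries (log2 -1.11 ± 0.20, edgeR adjusted p = 0.0282). Ppp1r10, a nuclear phosphatase subunit, lay between 20.4 and 27.2 CPM in controls and, in all 5 pFUS libraries, between 11.2 and 15.3 CPM (log2 -0.83 ± 0.13, edgeR adjusted p = 0.0124). Neither gene was on the list of integrated stress response genes. Of the 18 on it that were tested, none passed by edgeR, 14 had an estimate below 0 and the median was -0.19. Among 27 immediate early genes, 1 rose and 26 did not pass by edgeR, beside 0.119% of all genes called. The 1 that rose was Dusp1, which is also among the glucocorticoid targets. Of the 27, 19 estimates were below 0, with a median of -0.40. Ccn1, also called by DESeq2 beside 52 of all 12577 genes, was at -1.32. Junb was at -1.16, Egr1 at -1.16 and Maff at -0.85.

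Pnmt, which makes adrenaline from noradrenaline, read 1.61, 3.52, 2.40, 1.61 and 1.52 CPM in controls and 0.407, 0.503, 0.423, 0.434 and 0.508 CPM with ultrasound. It was 4.65-fold lower (log2 -2.22 ± 0.31, edgeR adjusted p = 0.00443), but at 34 counts over the 5 pFUS libraries and 146 over the 5 controls. Within obese muscle, Pnmt had enough counts for the low-count filter in controls alone, where it was higher. Its call in the fit of only the 10 libraries is therefore listed but not taken as support. Lrrc30 read 8.65 to 17.9 CPM in controls and 2.03 to 3.79 CPM in pFUS libraries (log2 -1.90 ± 0.31, edgeR adjusted p = 0.0129). Tmem140 ran from 15.9 to 42.2 CPM against 6.60 to 15.8 CPM (log2 -1.52 ± 0.26, edgeR adjusted p = 0.0207). Ddit4l, a brake on mTOR signalling, ran from 74.3 to 309 CPM against 39.8 to 81.7 CPM, and Pnrc1, a nuclear receptor coactivator, from 31.6 to 117 CPM against 18.1 to 36.5 CPM. In both of these the groups overlapped (log2 -1.71 ± 0.31 and -1.51 ± 0.27, edgeR adjusted p = 0.0275 for each). Slc25a30, a mitochondrial carrier, ran from 2.67 to 5.89 CPM in controls and from 7.82 to 12.1 CPM in pFUS libraries (log2 1.33 ± 0.25, edgeR adjusted p = 0.0396). The gene ENSRNOG00000053109 (LOC103692169) had 0.762 to 2.12 CPM in 4 controls, 0 in control 4, and 0 in 4 of 5 pFUS libraries, so its fitted log2 of -5.20 rests on few counts. It had 2 counts over the 5 pFUS libraries and 92 over the 5 controls. In obese muscle only controls, where it was higher, had enough counts for the low-count filter, so its call is listed but not taken as support.

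Next in p were genes that did not pass in the main edgeR fit. Usp2, a clock-linked deubiquitinase, had an estimate of 1.01 ± 0.21 (edgeR adjusted p = 0.0720). DESeq2 called Usp2 (adjusted p = 0.00135), and so did edgeR without the low-count filter (adjusted p = 0.0470). Irf2bpl (-1.07), Sh3bp5 (-0.76), Tp63 (-1.11), Pim1 (-2.17) and Tgif1 (-1.40) had estimates below 0, as did Dyrk2 and the cell cycle inhibitor Cdkn1a described above. DESeq2 called all of these genes, and limma voom called Tgif1 (adjusted p = 0.0393) and Cdkn1a (adjusted p = 0.0243). Pim1 was at 9.52 CPM in control 3 and 1.80 to 2.31 CPM in the other controls.

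Genes of fuel use gave no call by edgeR. Of 33 fatty acid oxidation genes, 20 had estimates below 0; Ucp3, a mitochondrial carrier of fasted muscle, was lowest (log2 -1.54 ± 0.35, edgeR adjusted p = 0.125), and was called by DESeq2 (adjusted p = 0.00411) and limma voom (adjusted p = 0.0363). Pdk4, which turns muscle away from glucose, had an estimate of -1.09 ± 0.37. In glucose use, Txnip, an inhibitor of glucose uptake, read 904 to 1405 CPM in controls and 633 to 886 CPM in pFUS libraries without overlap (log2 -0.68 ± 0.17, edgeR adjusted p = 0.204, DESeq2 adjusted p = 0.0121). Pdp1, which activates pyruvate dehydrogenase, had an estimate of 0.67. Of 26 insulin signalling genes none passed by edgeR, and Irs2 had the smallest p (log2 -1.18 ± 0.29, edgeR adjusted p = 0.182); DESeq2 called it (adjusted p = 0.0212). The 30 nuclear OXPHOS genes tested had a median of -0.06, and the 13 of the mitochondrial genome 0.32, with all 13 estimates above 0 and none past the threshold by edgeR. That last median ran from 0.00573 to 0.794 as single libraries were left out.

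**Figure D3:**
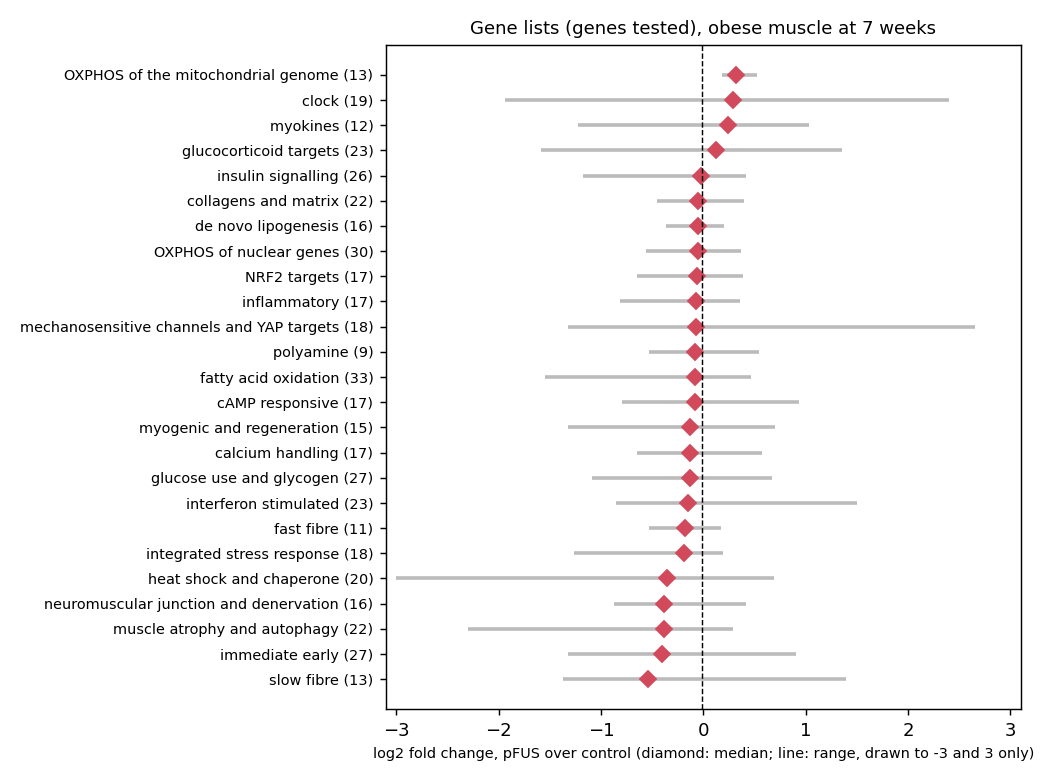
Median log2 fold change (diamond) and range (line) of each of the 25 gene lists, pFUS over control, with the number of genes tested in brackets. The line of the heat shock list is cut short at the edge, as its lowest estimate was -6.08. The dashed line is the median of all genes. The medians run from -0.54 for slow fibre genes to 0.32 for genes of the mitochondrial genome.

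Fibre type lists held no call by edgeR: 10 of 13 slow fibre genes and 10 of 11 fast fibre genes had estimates below 0. Mechanosensitive channels and YAP targets held none by edgeR either (18 tested, median -0.07). Beside 52 of all 12577 genes, DESeq2 called 1 of these 18, Ccn1 (log2 -1.33, adjusted p = 0.00282). Their widest estimate, Ankrd1 at 2.66, rested on pFUS library 7, at 94.9 CPM against 2.58 to 9.36 CPM in the other 4; leaving that library out gave 0.384. Piezo1, a mechanically gated channel, had an estimate of -0.67. Interferon (23 tested), inflammatory (17), NRF2 (17), collagen and matrix (22) and lipogenesis (16) genes had no call by edgeR or DESeq2.

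In heat shock genes the controls were uneven. Hspa1b, an inducible HSP70, read 2.12, 420, 1172, 5.23 and 2.63 CPM in controls 1 to 5 and 0.813 to 7.79 CPM in pFUS libraries. Dnajb1, its cochaperone, read 9.67, 50.7, 101, 7.35 and 7.97 CPM in controls and 6.39 to 9.99 CPM with ultrasound. For these 2 genes controls 2 and 3 were high and the other 3 were within the range of the pFUS libraries. For Hspb1, a small heat shock protein, control 4 was also above every pFUS library, at 354 CPM against 94.1 to 202 CPM. By edgeR none of 20 heat shock genes passed. DESeq2 called Hspa1b (adjusted p = 0.000185) and Dnajb1 (adjusted p = 0.0154), beside 52 of all 12577 genes. Of the 20, 18 had estimates below 0, and the median was -0.35; without controls 2 and 3 it was -0.04, and the Hspa1b estimate turned from -6.08 to 0.53. The same omission left 1 called gene of 15, Ciart (log2 2.75, edgeR adjusted p = 0.0461), with Pnmt at -1.77 (edgeR adjusted p = 0.121); it also leaves 3 controls.

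**Figure D4:**
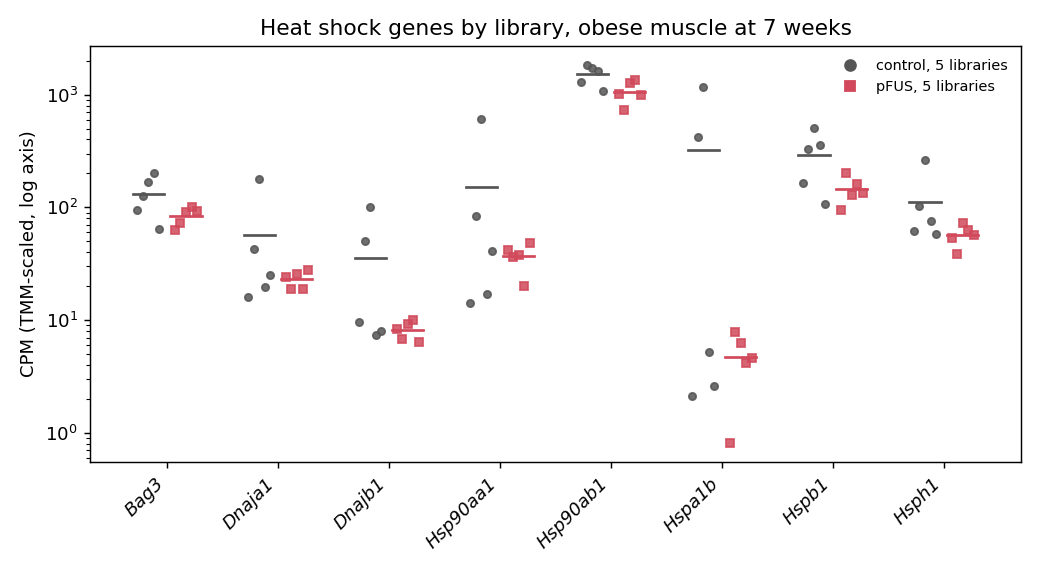
Heat shock genes by library, in TMM-scaled CPM on a log axis, with a bar at the group mean. For Hspa1b, 2 of 5 controls lie at 420 and 1172 CPM, and the other 3 lie between 2.12 and 5.23 CPM.

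The lean Zucker muscle asks whether the response depends on the obese model. No gene passed there (0 of 12577, 0%), with 734 genes at an unadjusted p under 0.05 by edgeR, 32 calls by DESeq2 and 0 by limma voom with quality weights. Without lean pFUS library 18 or 19 the edgeR count was 33 or 37. Slow fibre genes moved with the lean groups: 12 of 13 were higher at an unadjusted p under 0.05 by edgeR, with a median log2 of 4.01. Their marker Myh7 read 1297 and 1649 CPM in lean pFUS libraries 16 and 17, 7.04 and 0.484 CPM in 18 and 19, and 0.379 to 88.2 CPM in lean controls. Marker lists moved as well. All 4 liver markers tested were higher in lean muscle at an unadjusted p under 0.05 by edgeR, with a median log2 of 5.67. Of 15 adipocyte markers tested there, 10 had estimates below 0, with a median of -0.916 and 3 lower at that threshold. The part of these lists and of fibre type in the lean comparison was not tested. The difference between obese and lean responses also gave none (0 of 12577, 0%; 542 at an unadjusted p under 0.05, 13 calls by DESeq2 and 5 by limma voom; 2 by edgeR without obese control 4). Of the 15 genes, 12 had an estimate of the same sign in lean muscle: 0.16 for Ciart, 0.51 for Per2 and -0.97 for Arntl. For Ciart the obese minus lean difference was 2.23 (edgeR adjusted p = 0.613), so the responses were not shown to differ. As levels, with no test, Ciart averaged 9.95 ± 2.36 CPM (SD, n = 4) in lean and 1.57 ± 0.77 CPM (SD, n = 5) in obese controls. With ultrasound the obese mean was 8.36 ± 2.85 CPM (SD, n = 5). Lean libraries carried 4.02 to 9.29% of counts from RNAs without poly(A), against at most 0.0218% in obese ones, and the part of this in the level differences was not tested.

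Obese muscle at 3 days gives the same genes at an earlier time. With AM only x1, 2 of 12793 genes (0.0156%) were called, Ciart and Npas2. With AM only x10, 33 (0.258%) were called, among them Ciart, Per2, Arntl, Npas2 and Lrrc30. DESeq2 called 10 and 198, and with x10 edgeR called 13 without RNAs lacking poly(A) and 16 without the filter. Adipocyte markers moved with x10, where 15 of 16 had estimates above 0, with a median log2 of 1.26 and 6 at an unadjusted p under 0.05 by edgeR. Slow fibre genes moved with x1, where 13 of 13 had estimates below 0, with a median of -2.06. All 6 liver markers tested had estimates below 0 with x10, with a median of -1.87 and 2 at an unadjusted p under 0.05 by edgeR. Of 7 red cell markers tested, 7 had estimates above 0 with x1 and 6 with x10. In turn, 2 and 3 of them were at an unadjusted p under 0.05 by edgeR. The part of any of these lists in these calls was not tested. The x1 count was 1 to 4 and the x10 count 1 to 48 as single libraries were left out, the 1 call with x10 being without 3-day control 44. These 2 comparisons share their controls. The 3-day fit also scales libraries on its own. Ciart read 0.816, 1.72, 1.15 and 0.621 CPM in the 4 controls, 9.99, 2.32, 8.65 and 14.3 CPM with x1 and 7.55, 8.68, 8.82 and 6.18 CPM with x10. Every ultrasound library was above every control under both schedules (log2 3.00 ± 0.47, adjusted p = 0.0127 with x1, and 2.83 ± 0.47, adjusted p = 0.0155 with x10, both by edgeR). Npas2 fell with x1 (log2 -2.35 ± 0.29, edgeR adjusted p = 0.000805) and with x10 (-2.46 ± 0.30, adjusted p = 0.000491).

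Arntl averaged 24.3 ± 5.92 CPM in 3-day controls and 7.30 ± 0.776 CPM with x10 (SD, n = 4 each), and its log2 change of -1.73 ± 0.32 passed (edgeR adjusted p = 0.0244). Lrrc30 likewise fell with x10 (log2 -1.69 ± 0.34, edgeR adjusted p = 0.0345). The other called genes outside the clock that were tested did not pass at 3 days by edgeR. With x1 and x10 in turn, estimates were 1.33 and 0.93 for Slc25a30, -1.54 and -0.75 for Pnmt and -0.79 and -0.80 for Ddit4l. They were 0.55 and 0.44 for Dusp1, -0.33 and -0.35 for Tmem140, 0.23 and 0.31 for Sgk1 and -0.30 and -0.09 for Pnrc1. For Ppp1r10 they were -0.26 and -0.34, and for Ppp1r15a -0.21 and -0.20. All 14 of the called genes that were tested at 3 days had the sign of the 7-week estimate with x1, and the same held with x10, which shares the controls. The share of all genes with the same sign was not computed, here or in lean muscle or liver, so these counts have no background. No gene's 7-week effect differed from its 3-day effect past the threshold: 0 of 12793 (0%) against x1, with 518 at an unadjusted p under 0.05 by edgeR and 0 by DESeq2, and 0 (0%) against x10, with 1074 and 32. The x10 difference gave 9 calls without obese control 3, 8 and 1 without x10 libraries 40 and 39, and 2 without pFUS library 8.

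**Figure D5:**
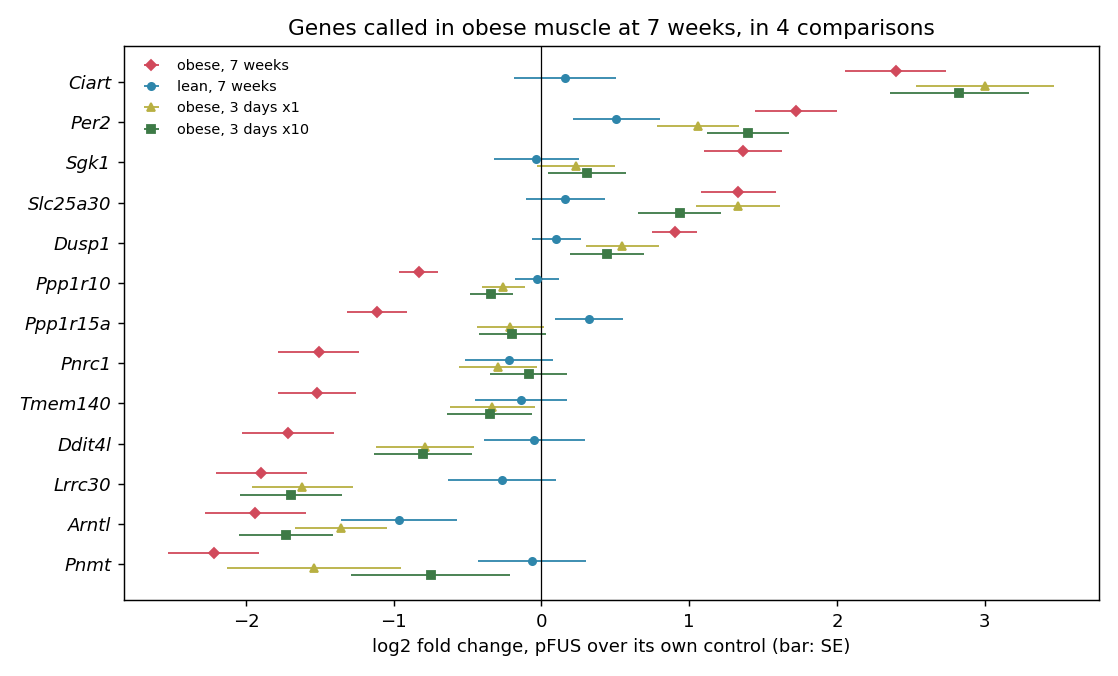
Log2 fold change with SE of 13 of the called genes, in obese muscle at 7 weeks, lean muscle at 7 weeks and obese muscle at 3 days with x1 and x10. Ciart lies at 2.40, 0.16, 3.00 and 2.83 in that order.

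The liver libraries carry the same numbers as the muscle libraries. The labels used here do not say whether a shared number is a shared animal, so the tissues may not be independent. In obese liver 50 of 12585 genes (0.397%) were called at 7 weeks. Of the muscle genes, Ciart (log2 3.71, adjusted p = 0.0134), Arntl (-2.58, adjusted p = 0.00179) and Tmem140 (-1.16, adjusted p = 0.0125) were called there by edgeR in the direction seen in muscle. Of the 12 called genes tested in liver, 10 had the sign seen in muscle; Slc25a30 (log2 -1.45, edgeR adjusted p = 0.527) and Dusp1 (-0.09) did not. The clock genes Dbp, Nfil3, Npas2 and Per3 missed the threshold in muscle by edgeR but not by DESeq2. In liver edgeR called Dbp and Nfil3 (2.93 and -1.80, edgeR adjusted p = 0.00179 for each). It also called Npas2 (-2.245, edgeR adjusted p = 0.00368) and Per3 (2.249, edgeR adjusted p = 0.0306) there. The difference between tissues was not tested. Per2 was at 1.13 and did not pass in liver (adjusted p = 0.298).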

How the data were processed

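Gene counts were read from the deposited table: whole-number expected counts per gene that the authors made with STAR 2.5.3a and RSEM (the submitters' processing notes name these tools and Rnor_6.0) from stranded poly(A) libraries, per the labels' protocols. All value columns mapped to a sample by title. Genes passed filterByExpr with a minimum count of 10, and TMM scaling and quasi-likelihood tests (edgeR 4.0.16, R 4.3.3) were fitted to the 4 groups of 7-week muscle together. The 3-day comparisons shared a fit with 7-week obese muscle, and liver had its own. A CPM is scaled by TMM within its fit, except marker levels, which use total counts. On simulated counts with 12272 genes tested, 41.8% of genes changed 2-fold and 88.7% of those changed 4-fold were called, with 4 unchanged genes called. Apart from these changes, each simulated gene had the same mean in all groups and the same spread in all libraries. The uneven controls and obese to lean differences of the real libraries were left out, so these rates are not those of the real comparison. The members, lists and tests were chosen with earlier results of these data known. The text names the called genes (some items are not reported here), the 12 next in p with a symbol, up to 5 members of smallest p per list and, where stated, others. Symbols were matched to RefSeq by name. Alternatives were DESeq2 1.42.0, limma 3.58.1 voom with quality weights, RLE scaling, no filter, no RNAs lacking poly(A), only the 10 libraries, and each library left out. edgeR's newer quasi-likelihood dispersion (legacy set to false) was made the main setting after both it and the older one had been seen, because it gave the count of an earlier analysis of these files. The older estimate and the omission of controls 2 and 3 were added as alternatives after seeing the data. No library pair was identical (10 pairs per group).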

Additional observations from a re-analysis of the deposited data

Results flagged for a closer look

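In 116 groups of 5 libraries tested with Dixon's criterion for 1 value far from the others, 13 were flagged. Chance flags about 1 in 20 where values are normally distributed. The CPM were tested without a log, and the chance rate for such values was not estimated. Controls 3 and 4 gave 6 of the 12 gene flags. Control 3 was highest for Pim1 (9.518 CPM, group median 2.204), Dyrk2 (86.69, median 45.79) and Hsph1 (264.1, median 76.07). Control 4 was highest for Pnpla2 (179.8 CPM, median 108.8), Atf5 (100.8, median 34.22) and Egr1 (21.03, median 9.244), and its share of counts from RNAs without poly(A) was 0.0218% (median 0.00529%). Control 2 was highest for Lrrc30 (17.86 CPM, median 9.176) and Tp63 (17.93, median 8.56), and control 5 was lowest for Txnip (904.3 CPM, median 1338). Among pFUS libraries, number 9 was highest for Ucp3 (181.1 CPM, median 77.94), number 7 for Ankrd1 (94.93, median 3.837) and number 8 for LOC103692169 (0.1209 CPM, with the other 4 at 0).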

How the results depend on the processing

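DESeq2 called 52 genes in obese muscle at 7 weeks against 15, 32 in lean muscle and 13 for the obese minus lean difference against 0 each, 10 with x1 against 2, 198 with x10 against 33 and 32 for the x10 difference against 0. Without the filter, lean muscle gave 21 calls and x10 16; without RNAs lacking poly(A), x10 gave 13. Only the 10 libraries gave 5 calls. In obese muscle at 7 weeks limma voom with quality weights called 20 genes, with 12 of the 15 kept. Leaving out controls 2 and 3 together gave 1 call, an Hspa1b estimate of 0.5255, and list medians of 0.0458 for NRF2 targets and 0.123 for calcium handling. Leaving out single libraries gave 3 to 35 calls in obese muscle, 0 to 37 in lean muscle, 0 to 2 for obese minus lean, 1 to 4 with x1, 1 to 48 with x10 and 0 to 9 for the x10 difference. The list medians ran from -0.267 to -0.00979 for mechanosensitive genes and from -0.218 to 0.104 for calcium handling. The cause of these shifts was not tested. Of the 15 called genes, Per2, Ppp1r10, Dusp1, Tmem140, Ddit4l, Pnrc1, Ppp1r15a, Slc25a30 and Sgk1 lost their call in the fit of only the 10 libraries (edgeR adjusted p = 0.109 to 0.310). LOC103692169 did not pass the low-count filter of that fit and was not tested in it. Sgk1 and Slc25a30 lost their call with RLE scaling (edgeR adjusted p = 0.0576 and 0.0531) and with limma voom (0.0508 each). LOC103692169 lost it with limma voom (0.0541). The older dispersion estimate called 13 genes, without Sgk1 and LOC103692169 (edgeR adjusted p = 0.0523 each). No sign changed among the 15. No paired analysis was possible because the groups compared share no replicate numbers. Low counts limit Pnmt and LOC103692169.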

Other observations

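Genes of the neuromuscular junction and denervation gave no call by edgeR or DESeq2 in obese muscle at 7 weeks. Of 16 tested, 15 had estimates below 0 and the median log2 fold change was -0.38, beside -0.01 for all genes. Rapsn, which clusters acetylcholine receptors, had an estimate of -0.71. Without controls 2 and 3 the median was -0.383. Myogenic and regeneration genes gave no call by edgeR (15 tested, median -0.12) and 2 by DESeq2, beside 52 of all 12577 genes.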
